A study of Drosophila melanogaster with 4 samples.

Results

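The genes described here are 35 genes of the contractile apparatus of Drosophila melanogaster muscle, from actin, myosin and troponin to proteins of the Z-disc, calcium handling and 2 regulators of muscle genes. They were chosen by symbol and found by FlyBase identifier, and all 35 were among the 17510 genes of the count table. RNA came from dissected adult intestines without crop and Malpighian tubules, and 4 libraries were sequenced. Libraries 1 and 2 of the first genotype are labelled wild type. Libraries 1 and 2 of the other carry an RNAi line of the NIG stock collection against CG5789 (Cftr), a gene related to the chloride channel gene CFTR of humans. The numbers follow the order of deposit, because the labels number no replicates. The driver of the RNAi, the age and sex of the flies and any control for the transgene are not given in the sources, and effects of knockdown, transgene and line background cannot be told apart.

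The fly gut is wrapped in visceral muscle, an inner circular and an outer longitudinal layer whose contractions move food along the epithelium. Unlike visceral muscle of vertebrates, it is striated. Its fibres hold sarcomeres, in which thin filaments of actin slide past thick filaments of myosin, and calcium released from the sarcoplasmic reticulum starts contraction through troponin and tropomyosin. Flies use several actin and troponin C genes, each in its own set of muscles, while 1 gene, Mhc, encodes the muscle myosin heavy chain in all of them.

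The libraries held 30537063 counts (wild type 1), 11294882 (wild type 2), 30252763 (RNAi 1) and 23674485 (RNAi 2). Cftr itself had 13.8 and 43.4 CPM (counts scaled to library size, with factors from the TMM method) in wild type 1 and 2 and 13.8 and 17.5 CPM in RNAi 1 and 2, so RNAi 1 was not below wild type 1 and every direction below is for libraries as labelled. The first principal component, with 52.6% of the variance of log2 CPM, separated 2 library sets, the first with wild type 1 and RNAi 1 (set 1) and the second with wild type 2 and RNAi 2 (set 2). The sets were read from the counts and are no label. Whether a genotype's libraries stem from different flies is not stated, and the p-values measure library-to-library spread that may be purely technical. Summed over the marker lists, enterocyte genes had 7374 to 9435 CPM in the 4 libraries, nerve cell genes 18.3 to 26.4 CPM, tracheal genes 27.8 to 44.6 CPM and tubule genes 71.6 to 75.6 CPM. Most of the enterocyte sum was Amy-p, at 4312 to 8645 CPM, and most of the tubule sum was Irk2, at 44.5 to 55.4 CPM. Within the enterocyte list, Jon25Bi had 259 and 2178 CPM in wild type and 916 and 2001 CPM in RNAi. The tubule marker Uro had 26 and 1 counts in wild type and 10 and 0 in RNAi. Enteroendocrine markers summed to 182 to 226 CPM. Stem cell and enteroblast markers summed to 125 and 247 CPM in wild type 1 and 2 and 145 and 287 CPM in RNAi 1 and 2. Most of that sum was kay, at 106 and 232 CPM in wild type and 119 and 266 CPM in RNAi. The markers E(spl)mbeta-HLH and klu were lower in set 2 in both genotypes, and esg was not matched. Haemocyte markers summed to 2.25 and 2.69 CPM in wild type against 7.34 and 4.53 CPM in the RNAi libraries, and ovary markers to 0.346 and 0.808 against 2.85 and 1.06 CPM. Of the 3 tested haemocyte markers, NimC1 and PPO1 were higher in both RNAi libraries and Sr-CI lower. Fat body markers summed to 99.1 and 117 CPM against 99.1 and 218 CPM. Of the 4 tested, apolpp and Yp1 had fitted log2 fold changes of 0.46 and 0.76, and Fbp2 and Lsp1beta of -2.48 and -1.02. The part of these tissues in the results was not tested.

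Muscle RNA was present in all 4 libraries, and the isoforms of flight muscle were at or near 0. The 35 genes together held 0.292% and 0.485% of all counts in wild type 1 and 2, and 0.252% and 0.372% in RNAi 1 and 2. Exact 95% binomial intervals, which cover counting error only, were 0.290% to 0.294%, 0.481% to 0.489%, 0.250% to 0.254% and 0.369% to 0.374%. The muscle share was thus lower in the RNAi library of each set, and RNAi 2 lay above wild type 1. As a ratio of RNAi to wild type, the summed CPM stood at 0.791 in set 1 and at 0.729 in set 2. Between libraries of 1 genotype the sum differed more, by 1.59 times in wild type and 1.47 times in RNAi, set 2 over set 1. In RNA of whole intestines, fewer muscle fibres, less RNA per fibre, more RNA from other cells and differences in dissection cannot be told apart.

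**Figure D1:**
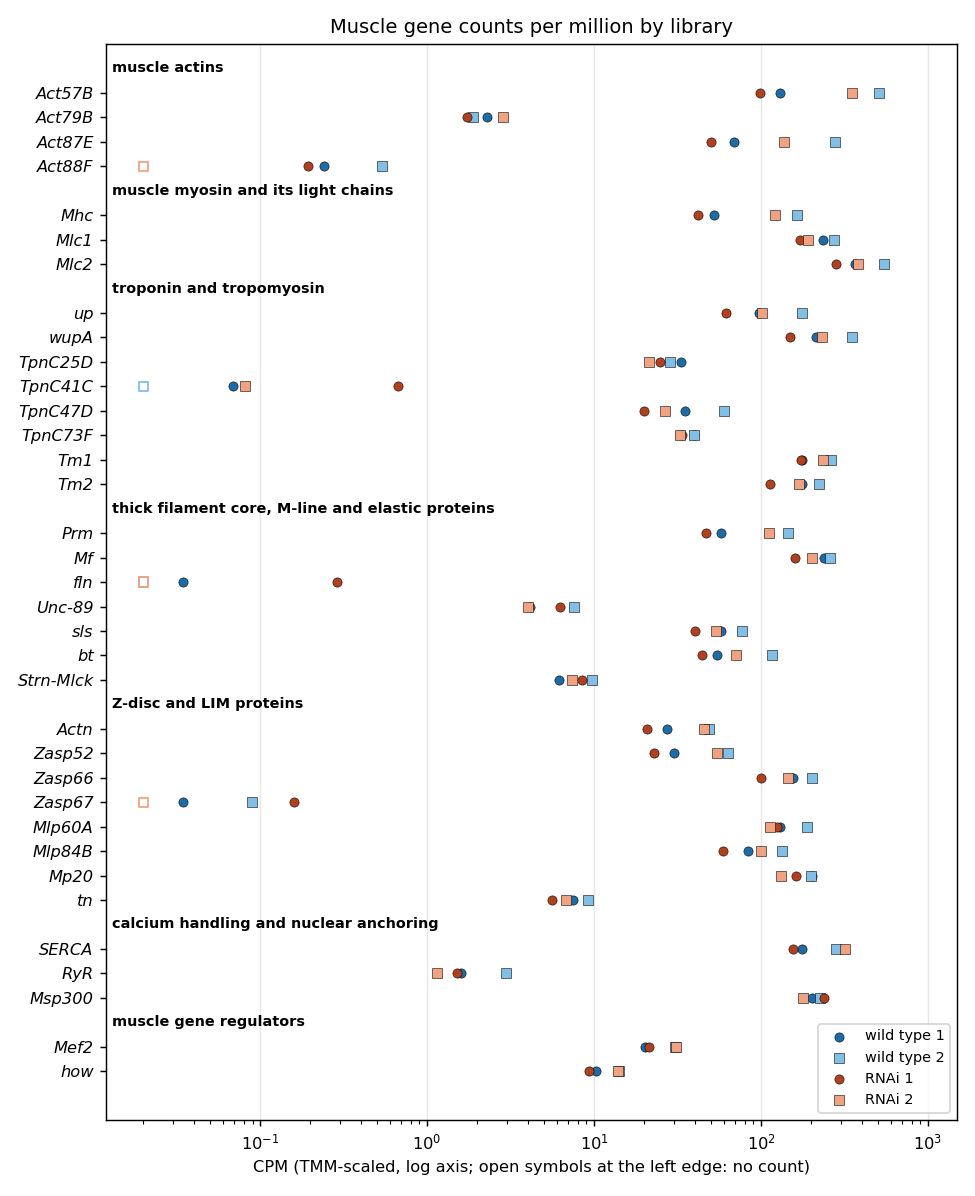
CPM on a log axis of the 35 muscle genes in wild type 1 and 2 and RNAi 1 and 2, ordered by role, with genes that had no count drawn as open symbols at the left edge. Act88F, TpnC41C, fln and Zasp67 stay below 1 CPM in every library, and set 2 (squares) lies well to the right of set 1 (circles) for Act57B, Act87E and Mhc.

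The low group consisted of 4 genes. Act88F, the actin of indirect flight muscle, had 7 and 6 counts in wild type and 6 and 0 in RNAi, and fln (flightin), a thick filament protein known from flight muscle, had 1 and 0 against 9 and 0. TpnC41C, a troponin C, had 2 and 0 counts in wild type and 21 and 2 in RNAi. Zasp67, a Z-disc protein, had 1 and 1 against 5 and 0. A count of 0 allows up to 0.269 CPM in wild type 2 and 0.122 CPM in RNAi 2, by a floor of 3 counts per library. None of these 4 was tested, because they did not pass the filter on low counts. TpnC4, a further flight muscle troponin C that is not one of the 35, had 0.160 to 1.04 CPM, so the 4 flight muscle markers of its list lay at or below 1.04 CPM in every library. Of the exon bases of fln, 61.6% overlap an antisense RNA gene, whose reads cannot be told apart from those of fln because the strand setting of the counting is not given. The remaining 31 genes were above the filter's minimum of 0.371 CPM in every library, so none entered the test through 1 genotype.

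Levels can be compared between genes only per length, here as CPM per kilobase of merged exon, the union of all annotated exons. This measure is too low for a gene whose main transcripts leave out many annotated exons. The highest mean over the 4 libraries was 183 CPM per kilobase for Mp20, a calponin-like muscle protein, with a range of 138 to 214. Mlc2, the regulatory myosin light chain, followed with 172 (range 122 to 240), Act57B with 158 (57.2 to 296), Mlc1, the essential light chain, with 154 (121 to 193), wupA, the troponin I gene, with 119 (75.2 to 176) and Act87E with 67.1 (25.1 to 139). The ranges of all these neighbours in the order overlapped, so their order is not fixed by these libraries. Below them came Tm2, Zasp66, Mlp60A, TpnC47D, up, Mf, TpnC73F, Mlp84B, SERCA, Tm1, TpnC25D and Prm, between 64.8 and 16.8 CPM per kilobase, and Mhc at 10.5 (4.64 to 18.1).

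The giant proteins and the regulators were at the lower end of that scale. Titin-like sls had 0.963 CPM per kilobase, projectin (bt) 2.56, nesprin-like Msp300 3.01, the obscurin gene Unc-89 (now Obsc) 0.416 and stretchin (Strn-Mlck) 0.242. The transcription factor Mef2 had 2.79 and the RNA-binding protein gene how 2.34, while the calcium release channel RyR had 0.110. Among the 29 tested genes whose mean reached 5 CPM, the level per length fell with exon length (Spearman's rho -0.80 across genes, which share the 4 libraries). Across 6721 genes of the table above that level, the rho was -0.59. Exon length is the divisor of the level per length, so a negative rho is partly built into both values. They are no evidence that long genes are transcribed less. Msp300, with 69810 merged exon bases, and sls, with 58996, are the longest of the 35.

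Light chain and heavy chain RNA kept nearly the same ratio in both genotypes of a set and differed between the sets. Mlc1 was 28.8 and 26.2 times Mhc per length in wild type 1 and RNAi 1, against 10.6 and 10.2 times in wild type 2 and RNAi 2. For Mlc2 the ratios to Mhc were 27.6 and 26.4 in set 1 and 13.2 and 12.6 in set 2. Paramyosin (Prm), the core protein of thick filaments, stayed closer to Mhc, at 1.85 and 1.87 times in set 1 and 1.496 and 1.571 times in set 2.

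In the comparison of genotypes, most sarcomere genes were at lower values in the RNAi libraries, and no single gene passed the test. The 31 tested genes had a median log2 fold change from wild type to RNAi, as fitted, of -0.42, against 0.0065 for all 9637 genes tested, and 27 of 31 fitted values were below 0, where 49.3% of all genes were. Counts and medians of this list are descriptions and carry no test. By edgeR's quasi-likelihood test 0 of 31 passed a Benjamini-Hochberg adjusted p of 0.05 over all genes, where 0.125% of all genes did. At an unadjusted p under 0.05 there were also 0, against 3.83% of all genes. DESeq2 called 0, where 0.955% of all genes passed, and had 1 at an unadjusted p under 0.05, TpnC47D, against 3.85%. Limma-voom called 0, against 0.114%, and had 0 at an unadjusted p under 0.05, against 3.78%. TpnC47D had the smallest unadjusted p of the 31 in each tool, 0.0511 in edgeR, 0.0335 in DESeq2 and 0.0546 in limma-voom.

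In 12 of the 31 genes both RNAi libraries lay below both wild-type libraries, and in 0 both lay above, where 12.2% and 12% of all tested genes did so. The 12 were Mp20, Mlc1, Tm2, Zasp66, Mlp60A, TpnC47D, Mf, TpnC73F, TpnC25D, tn, sls and RyR. Scaled by library size alone, the count was 7, and the share of all tested genes under that scaling was not computed. Within both sets RNAi was below wild type in 25 of 31 genes, against 30.9% of all genes, and above it in 1, Mef2, against 30.5%. In the other 5, Act79B, Unc-89, Strn-Mlck, SERCA and Msp300, the direction differed between the sets. Under other scalings, the count lower in both sets was 21 (library size alone) to 25. The median log2 ratio of RNAi to wild type was -0.39 in set 1 and -0.44 in set 2, beside -0.0069 and 0.0012 for all tested genes. Exact intervals of the count ratio, for counting error only, lay below 1 in both sets for 20 genes. The share of all tested genes with such intervals was not computed, so this count has no background to be read against. With 1 library per genotype in a set, these ratios have no replicate check.

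In the fit without the set term, the median of the muscle genes moved with the library left out. Without wild type 2 it was -0.05 and 16 of 31 values were below 0, beside an all-gene median of 0.11. Without RNAi 1 the median was -0.27 with 21 below 0, beside an all-gene median of -0.030. Leaving out wild type 1 gave -0.66 with 30 below 0 (all-gene median 0.041). Leaving out RNAi 2 gave -0.69 with 28 below 0 (all-gene median -0.027). The share of all genes below 0 was not computed for these fits. Each of these fits sets libraries of both sets against 1 library of 1 set, so genotype and set are unbalanced in it. Whether that imbalance accounts for the shifts was not tested. In set 1 alone, with 1 library per genotype, 27 of 31 ratios of RNAi to wild type were below 1. The median log2 ratio of all tested genes there was -0.0069, and their share below 1 was not computed.

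**Figure D2:**
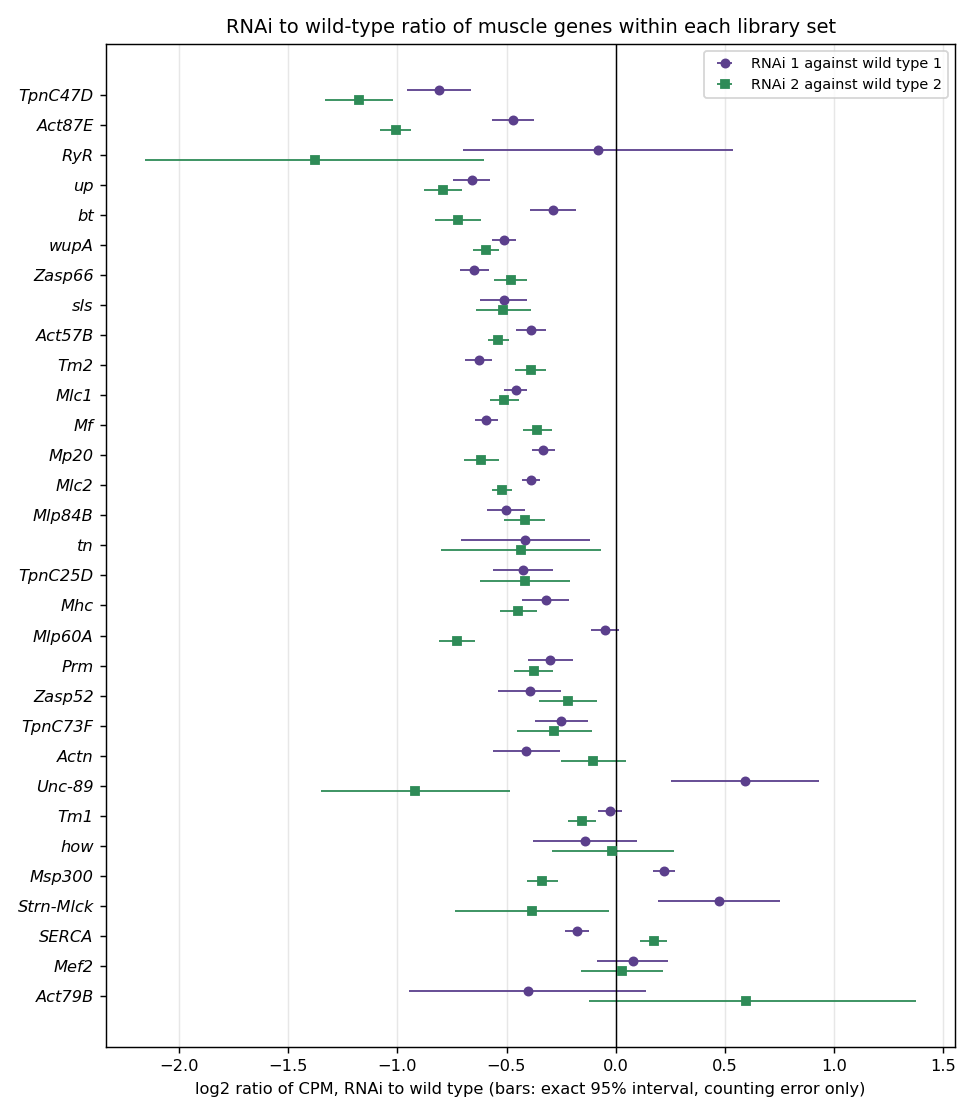
Log2 ratio of CPM, RNAi to wild type, within set 1 (circles) and set 2 (squares) for the 31 tested muscle genes, sorted by fitted log2 fold change, with exact 95% intervals for counting error. Points of 25 genes lie left of 0 in both sets, TpnC47D farthest among the abundant ones, and Unc-89, Msp300 and Strn-Mlck lie on opposite sides.

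With the library set as a further term in the edgeR model, 5 of the 31 genes fell and 0 rose: TpnC47D, up, Act87E, Zasp66 and sls. In that fit 3.65% of all genes were lower and 3.45% higher. With the set term DESeq2 called 3 lower (TpnC47D, up and Act87E), where 2.02% of all genes with an adjusted p were, and limma-voom called 7 lower, the 5 with wupA and bt, where 4.1% were. Because the sets were themselves read from these counts, and only 1 degree of freedom remains for the residual spread, the p-values of these fits can be too small.

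The troponin and tropomyosin group, which makes the thin filament sensitive to calcium, held the gene with the lowest fitted value. Of its 7 tested genes all 7 were lower within both sets, with a median log2 fold change of -0.49, and 2 were called lower with the set term, beside 30.9% and 3.65% of all genes. TpnC47D, a troponin C on chromosome arm 2R (11273845 to 11275286, minus strand, BDGP6), had 35.01 and 60.05 CPM in wild type and 19.97 and 26.58 CPM in RNAi. Both RNAi values were below both wild-type values. Its log2 fold change was -1.03 (SE 0.44, edgeR adjusted p = 1.0), and -0.99 (SE 0.17, edgeR adjusted p = 6.50e-05) with the set term.

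The gene up encodes troponin T, the subunit that binds tropomyosin, and lies on chromosome X (13593474 to 13602578, minus strand). It had 97.6 and 175 CPM in wild type and 61.8 and 101 CPM in RNAi, so RNAi 2 was just above wild type 1. The ratio to wild type was 0.633 (exact interval 0.597 to 0.671) in set 1 and 0.577 (0.544 to 0.613) in set 2. The log2 fold change was -0.74 (SE 0.46, edgeR adjusted p = 1.0), and -0.73 (SE 0.17, edgeR adjusted p = 0.00422) with the set term. The inhibitory subunit, troponin I, comes from wupA, at 212 and 348 CPM in wild type and 149 and 231 CPM in RNAi, with ratios of 0.701 and 0.663 in sets 1 and 2. Its edgeR adjusted p was 1.0, and 0.0566 with the set term.

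The other troponin C genes moved less. TpnC25D had 33.3 and 28.4 CPM in wild type against 24.8 and 21.2 CPM, and TpnC73F had 39.9 and 39.6 CPM against 33.6 and 32.6 CPM. Neither pair of genotypes overlapped, and neither gene was called in any fit (edgeR adjusted p with the set term 0.144 and 0.435). Per length, TpnC47D made up 40.7% and 55.8% of troponin C RNA in wild type 1 and 2 and 32.7% and 41.3% in RNAi 1 and 2, so its part was lower in the RNAi library of each set. TpnC41C was at most 0.464% of the family. Of the tropomyosins, Tm2 had 175 and 221 CPM in wild type against 113 and 169 CPM, whereas Tm1, which also encodes cytoskeletal isoforms, had 177 and 261 against 174 and 234 CPM.

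**Figure D3:**
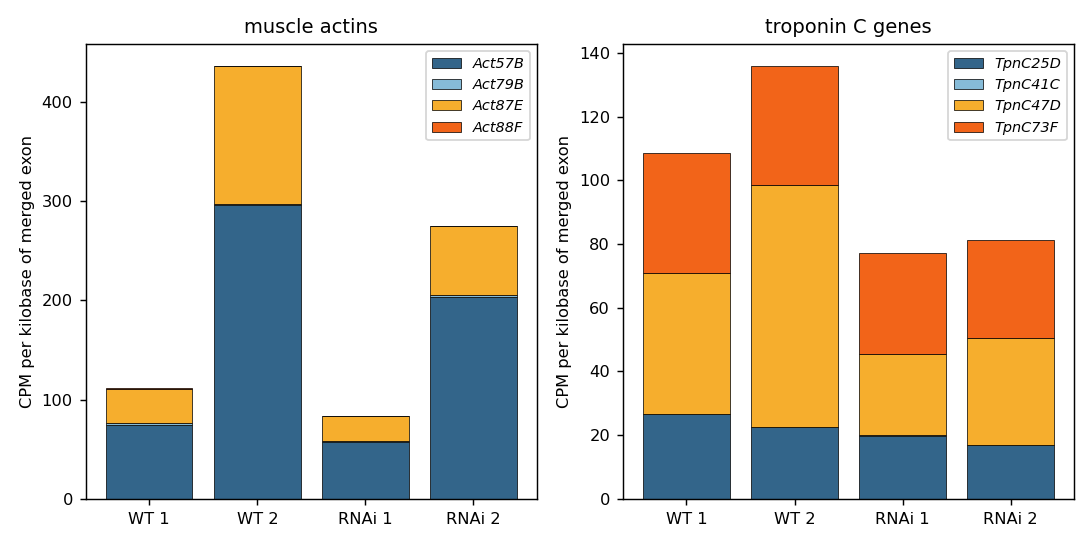
Stacked CPM per kilobase of merged exon of the 4 muscle actin genes (left) and the 4 troponin C genes (right) in each library. Act57B and Act87E make up nearly all muscle actin RNA in every library, and total actin RNA in wild type 2 is far above wild type 1, while TpnC47D takes a smaller part of the troponin C bar in each RNAi library than in the wild-type library of its set.

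Muscle actin RNA was that of Act57B and Act87E, both known from larval and visceral muscle. Act57B had 129 and 510 CPM in wild type and 98.6 and 351 CPM in RNAi, and Act87E 69.3 and 277 CPM against 49.9 and 138 CPM. For both, the 2 libraries of a genotype differed more than the genotypes of a set, and the groups overlapped. Per length, Act57B was 67.3% and 67.7% of muscle actin RNA in wild type and 68.5% and 74.1% in RNAi, and Act87E 31.3% and 31.9% in wild type and 30.1% and 25.2% in RNAi. Act79B, known from leg and other tubular muscle, had 2.28 and 1.88 CPM in wild type and 1.73 and 2.85 CPM in RNAi, at most 1.28% of the family.

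The log2 fold change of Act87E (chromosome arm 3R, 13425983 to 13428375, plus strand) was -0.88 (SE 0.74, edgeR adjusted p = 1.0), and -0.74 (SE 0.18, edgeR adjusted p = 0.00576) with the set term. Its ratio to wild type was 0.721 (exact interval 0.674 to 0.771) in set 1 and 0.497 (0.473 to 0.522) in set 2. Without wild type 2 and the set term its log2 fold change was 0.47. For Act57B the value was -0.50 (SE 0.78, edgeR adjusted p = 1.0) and, with the set term, -0.46 (SE 0.18, edgeR adjusted p = 0.141). Muscle and cytoplasmic actin genes have nearly the same coding sequence, and how reads that fit several of them were counted is not given, so the split among actin genes is uncertain. Cytoplasmic Act5C, at 4659 to 7657 CPM, was far more abundant than any muscle actin gene.

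The 3 myosin genes lay lower within both sets, beside 30.9% of all genes, and were not called. Mhc had 52.4 and 164 CPM in wild type and 42.0 and 120 CPM in RNAi, Mlc1 236 and 272 against 172 and 191 CPM, and Mlc2 365 and 548 against 279 and 382 CPM. Only for Mlc1 did the genotypes not overlap. The log2 fold changes were -0.41 (SE 0.68) for Mhc, -0.49 (SE 0.37) for Mlc1 and -0.46 (SE 0.42) for Mlc2, each with an edgeR adjusted p of 1.0. With the set term the edgeR adjusted p was 0.208, 0.109 and 0.168.

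The thick filament core, M-line and elastic proteins divided into 4 genes with lower values and 2 of mixed direction. The gene sls (chromosome arm 3L, 2039681 to 2115611, minus strand) encodes the titin-like springs that join thick filaments to the Z-disc. It had 57.2 and 76.5 CPM in wild type and 40.1 and 53.5 CPM in RNAi, with a ratio of 0.701 in set 1 and 0.700 in set 2. Its log2 fold change was -0.51 (SE 0.40, edgeR adjusted p = 1.0) and, with the set term, -0.51 (SE 0.16, edgeR adjusted p = 0.0494), close to the threshold, while DESeq2 with that term gave an adjusted p of 0.232. The gene bt, for the titin-like kinase protein projectin, had 54.4 and 117 CPM in wild type against 44.6 and 70.9 CPM (log2 fold change -0.57, SE 0.50, edgeR adjusted p = 1.0, and 0.0665 with the set term).

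Myofilin (Mf), a thick filament protein, had 239 and 259 CPM in wild type and 159 and 202 CPM in RNAi, with no overlap. Prm had 57.3 and 145 CPM against 46.5 and 112 CPM. In contrast, Unc-89 had 4.15 and 7.63 CPM in wild type and 6.25 and 4.04 CPM in RNAi, and Strn-Mlck 6.12 and 9.69 against 8.49 and 7.42 CPM, higher in RNAi in set 1 and lower in set 2. Of the 6 tested genes in this group, 1 (sls) was called lower with the set term, beside 3.65% of all genes.

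Z-disc, LIM-domain and related genes, a group that includes Mp20 and tn, were lower within both sets in 7 of 7 tested, beside 30.9% of all genes. Zasp66, a PDZ-domain protein of the Z-disc (chromosome arm 3L, 8624371 to 8638813, plus strand), had 156 and 201 CPM in wild type and 99.5 and 144 CPM in RNAi, with no overlap. The log2 fold change was -0.55 (SE 0.40, edgeR adjusted p = 1.0) and, with the set term, -0.56 (SE 0.18, edgeR adjusted p = 0.0427), whereas DESeq2 with that term gave 0.0854. Its relative Zasp52 had 30.2 and 63.3 CPM against 23.0 and 54.4 CPM, and the crosslinker alpha-actinin (Actn) 27.4 and 49.1 against 20.6 and 45.7 CPM, with 15.7% of its exon bases under a gene on the other strand.

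Among the LIM and related proteins, Mlp84B had 83.7 and 134 CPM in wild type and 59.1 and 100.1 CPM in RNAi. Mlp60A had 130 and 188 against 125 and 113 CPM, so its ratio to wild type was 0.967 in set 1 and 0.604 in set 2. Mp20 had 203 and 200.2 CPM in wild type and 161 and 131 CPM in RNAi (log2 fold change -0.46, SE 0.37, edgeR adjusted p = 1.0, and 0.120 with the set term). The ubiquitin ligase gene tn (thin) had 7.47 and 9.16 against 5.61 and 6.77 CPM.

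Calcium handling, nuclear anchoring and regulator genes had fitted values near 0, apart from RyR. SERCA, the pump that returns calcium to the reticulum in muscle and in other cells, had 175 and 281 CPM in wild type and 155 and 317 CPM in RNAi, lower in RNAi in set 1 and higher in set 2. Its log2 fold change was 0.049 (SE 0.49, edgeR adjusted p = 1.0), and 16.0% of its exon bases lie under a gene on the other strand. Msp300, the nesprin that anchors muscle nuclei, had 203 and 224 against 237 and 178 CPM, with a log2 fold change of -0.045 (SE 0.38, edgeR adjusted p = 1.0) that turned to 0.051 with library size alone. RyR had 46, 33, 47 and 28 counts in wild type 1 and 2 and RNAi 1 and 2, and its log2 fold change of -0.75 had an SE of 0.52 (edgeR adjusted p = 1.0).

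Mef2, the transcription factor that switches on sarcomere genes in fly muscle, had 20.1 and 30.3 CPM in wild type and 21.2 and 30.9 CPM in RNAi. Its log2 fold change was 0.050 (SE 0.42, edgeR adjusted p = 1.0), and 0.053 (SE 0.17) with the set term. The splicing regulator how had 10.2 and 14.1 CPM against 9.26 and 13.9 CPM. Both genes differed by less between the genotypes of a set than between the libraries of a genotype. Whether their change differs from that of the sarcomere genes was not tested.

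The difference between the library sets was larger than that between the genotypes for some sarcomere genes and small for others. In 22 of 31 genes set 2 was above set 1 in both genotypes, against 38.2% of all tested genes. In 5 of 31 it was at least 2-fold above set 1 in both, against 4.9%. These 5, named after their values were seen, were Act57B (3.95-fold in wild type and 3.56-fold in RNAi), Act87E (4.0-fold and 2.76-fold), Mhc (3.13-fold and 2.87-fold), Prm (2.53-fold and 2.40-fold) and Zasp52 (2.10-fold and 2.37-fold). At the other end, also chosen after their values were seen, TpnC73F (0.991 and 0.970 times), TpnC25D (0.851 and 0.856 times) and Mp20 (0.987 and 0.810 times) were not higher in set 2.

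Set 2 to set 1 ratios in wild type and in RNAi, on the log2 scale, had a Pearson's r of 0.78 and a Spearman's rho of 0.74 over the 29 genes that reached a mean of 5 CPM. For the genotype ratios of set 1 against those of set 2 the r was 0.22 and the rho 0.36. These are descriptions across genes of the same 4 libraries, and the sets were chosen from these counts. The SD among the 29 genes was 0.55 and 0.61 on the log2 scale for set 2 against set 1, and 0.32 and 0.30 for RNAi against wild type. The ratio between the sets did not follow exon length (Spearman's rho 0.20 in wild type and 0.0084 in RNAi).

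**Figure D4:**
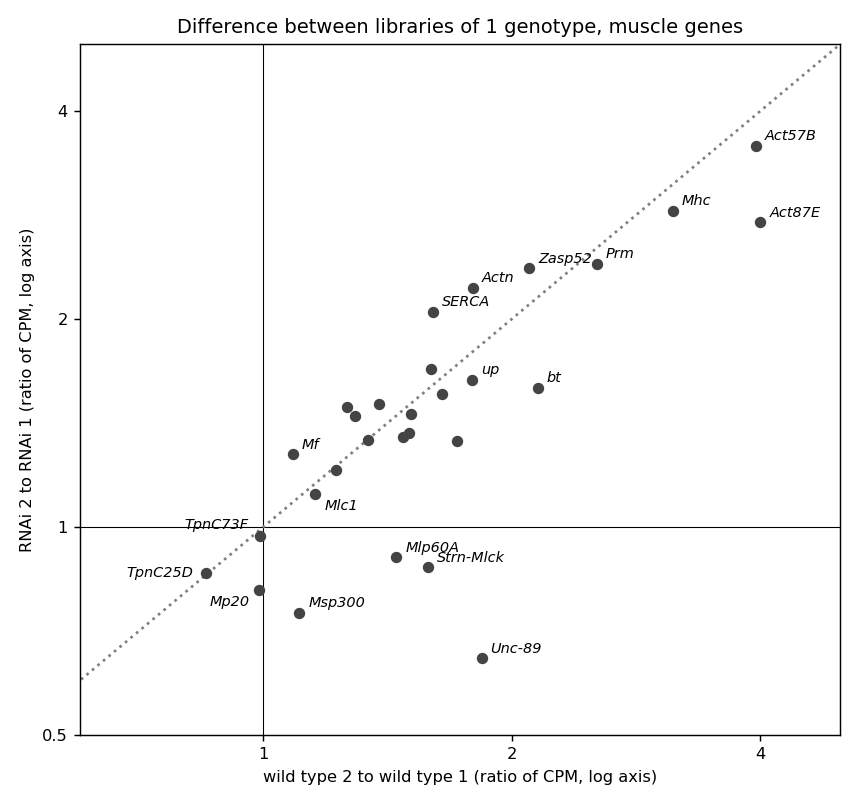
Ratio of CPM in wild type 2 to wild type 1 (horizontal, log axis) against RNAi 2 to RNAi 1 (vertical, log axis) for the 29 muscle genes whose mean reached 5 CPM, with the dotted line at equal ratios. Act57B, Act87E and Mhc lie at the upper right and TpnC25D, TpnC73F and Mp20 at or below 1 on both axes, while Unc-89, Msp300, Strn-Mlck and Mlp60A are above 1 in wild type alone.

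The median fitted value was closer to 0 for long genes. The 15 tested genes with at most 5000 merged exon bases had a median log2 fold change of -0.49 and the 16 longer ones had -0.24. Both RNAi libraries lay below both wild-type libraries in 8 and 4 of them, where 12.2% of all tested genes did so. Across the 31 the rho of exon length and log2 fold change was 0.31, and 0.12 across 9585 tested genes of the table. For level per length and log2 fold change the rho across the 31 was -0.44. Length and level per length are linked, and their parts in this pattern cannot be told apart here. Long and short genes of the whole table had medians of 0.081 and -0.0064. The 35 genes lie on 6 chromosome arms, 12 of them on 2R and 9 on 3R.

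In 9 other lists of muscle structure and function the medians lay closer to that of all genes or above it. The dystrophin complex, which links the cytoskeleton to the matrix, had a median log2 fold change of -0.12 over 8 tested genes, and integrin attachment genes had 0.10 over 10. Neither list had a call with the set term, where 7.1% of all genes had one. The smallest p in these lists belonged to the syntrophin gene Syn1 (log2 fold change 0.71, SE 0.47) and Scgdelta (-0.65, SE 0.57), and to the kindlin gene Fit1 (0.40, SE 0.53) and the integrin gene mew (0.28, SE 0.44), each with an edgeR adjusted p of 1.0. Muscle energy enzymes had a median of -0.020 over 7 and basement membrane genes -0.074 over 8, with 0 calls each. In these, Gpdh1 had 0.49 (SE 0.44), Gapdh1 -0.32 (SE 0.44), and the collagen IV genes vkg and Col4a1 1.16 (SE 0.74) and 0.73 (SE 0.60), again with an edgeR adjusted p of 1.0.

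The other 5 lists had medians of 0.15 (calcium and excitation), -0.0040 (further actin and Z-disc), 0.88 (chaperones), 0.15 (visceral muscle fate and signals) and 0.15 (non-muscle actin and myosin). With the set term edgeR called genes in both directions. Of 11 calcium and excitation genes 2 rose and 0 fell: slo, a calcium-activated potassium channel, had 14.6 and 16.7 CPM in wild type and 21.8 and 38.9 CPM in RNAi (log2 fold change 0.89, SE 0.18, edgeR adjusted p = 9.57e-04), and the sodium-calcium exchanger gene Calx 24.9 and 49.2 against 42.0 and 68.2 CPM (0.61, SE 0.17, edgeR adjusted p = 0.0149). Of 12 further actin and Z-disc genes 1 rose, the formin gene Fhos (0.93, SE 0.18, edgeR adjusted p = 3.14e-04), and 1 fell, the filamin gene cher (-0.81, SE 0.22, edgeR adjusted p = 0.0132). Among 3 muscle chaperone genes, stv (0.86, SE 0.17) and Hsp83 (1.30, SE 0.26) rose and the small heat shock protein gene l(2)efl (-0.58, SE 0.18) fell, with edgeR adjusted p of 4.74e-04, 0.00597 and 0.0355. Hsp83 is in use in all cells, and the names unc-45 and CryAB of the chaperone list were not matched.

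With the set term, 3.65% of all genes were called lower and 3.45% higher. Of 8 genes for visceral muscle fate and signals 1 fell, Hand, a transcription factor of visceral and heart muscle, at 25.2 and 19.5 CPM in wild type and 16.3 and 13.5 CPM in RNAi (log2 fold change -0.58, SE 0.18, edgeR adjusted p = 0.0381). Of 6 non-muscle actin and myosin genes 1 rose, the cytoplasmic actin gene Act42A, at 254 and 495 CPM against 546 and 616 CPM (0.71, SE 0.21, edgeR adjusted p = 0.0285). DESeq2 with the set term called 0 genes of these 5 lists lower, where 2.02% of all genes with an adjusted p were. So cher, l(2)efl and Hand were not called by it. It called 1 calcium and excitation gene, 1 further actin and Z-disc gene, 2 chaperone genes and 1 non-muscle gene higher. Limma-voom with that term gave the edgeR counts in each list. Without the set term none of the genes in these 9 lists passed edgeR's test over all genes, and 1 had an unadjusted p under 0.05, Hsp83.

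**Figure D5:**
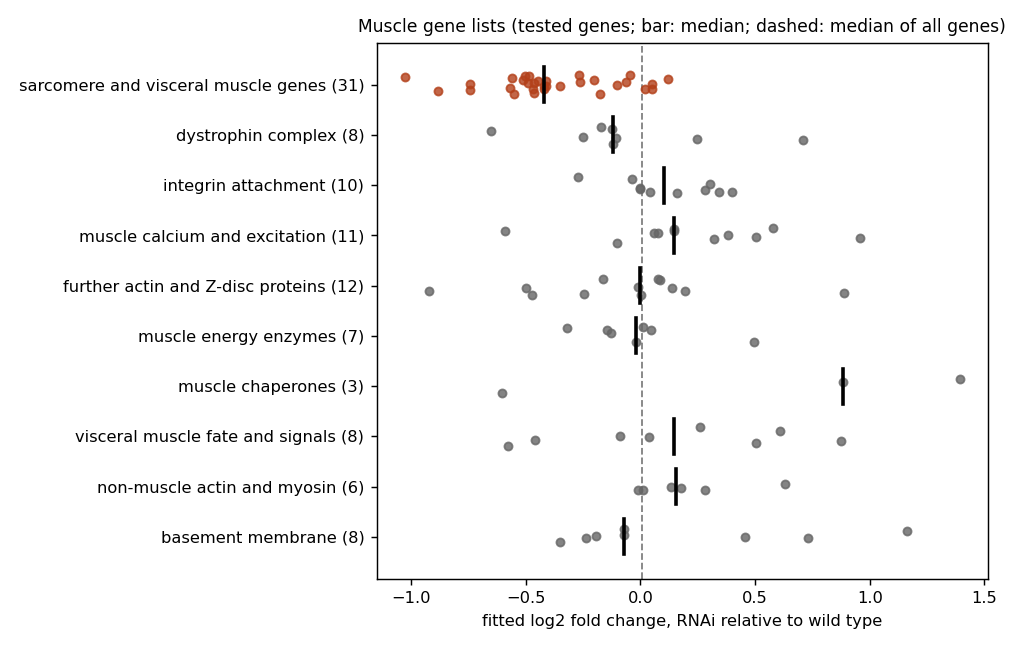
Log2 fold change from wild type to RNAi, as fitted, of each tested gene in the sarcomere and visceral muscle list and in 9 other lists, with the number tested in parentheses, a bar at each median and a dashed line at the median of all genes. The sarcomere genes centre at -0.42, and the medians of the other lists lie between -0.12 and 0.88.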

How the data were processed

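The authors deposited 1 table of raw counts per gene and library, whole numbers without normalization. FastQC, STAR and the BDGP6 build are listed in the submitters' processing notes. Versions, strandedness, annotation release and the program that counted reads are not given in the sources used here. Identifiers were matched to symbols for 17405 of 17510 genes. Positions and exon lengths came from the Ensembl annotation of BDGP6.

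In R 4.3.3, edgeR 4.0.16 (filterByExpr, TMM, quasi-likelihood test with robust estimation, Benjamini-Hochberg adjustment over 9637 genes, threshold 0.05) compared the genotypes over 4 libraries with no other term. The analysis code was tested on simulated counts. Alternatives were other scalings and filters, each library left out, DESeq2 1.42.0, limma-voom (limma 3.58.1) and a term for the library set, read from the leading principal component. The set term with DESeq2 and limma-voom was added after the data were seen.

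The 35 genes and the 19 other lists (140 names, 5 unmatched) were chosen with earlier results of these data known. The unmatched names were Ca-beta, unc-45, CryAB, zip and esg. Values are given for muscle genes called with or without the set term, the 6 highest per length, the 4 highest and 4 lowest fold changes and whole actin and troponin C families, and, in the 9 other muscle lists, for up to 3 called genes or the 2 of smallest p. Other members were added for completeness.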

Additional observations from a re-analysis of the deposited data

How the results depend on the processing

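Of the 31 tested muscle genes 0 passed in edgeR, and 0 passed with every other scaling and filter run, with DESeq2 or limma-voom without the set term, and without any 1 library. With the set term 5 passed in edgeR, 3 in DESeq2 and 7 in limma-voom. Genes past the threshold over the whole table numbered 12, but 1 with upper-quartile factors, 1 with a minimum mean of 5 CPM, 120 without a count filter, 92 with DESeq2, and 684, 409 and 751 with the set term in edgeR, DESeq2 and limma-voom. Without 1 library they numbered 58 to 120. The median log2 fold change of the muscle genes was -0.42, -0.33 with library size alone, where the median of all genes was 0.11, and -0.69 to -0.049 without 1 library. The count of muscle genes without overlap between genotypes was 12, and 7 with library size alone. The count of muscle genes lower in RNAi within both sets was 25, and 21 with library size alone. For either count, the share of all genes was not computed under the other scalings. Without 1 library, these log2 fold changes changed sign, with ranges of -1.74 to 0.84 for Act57B, -1.84 to 0.47 for Act87E, -0.32 to 0.44 for Act79B, -1.41 to 0.66 for Mhc, -0.38 to 0.22 for Tm1, -1.17 to 0.50 for Prm, -0.59 to 0.31 for Unc-89, -1.03 to 0.11 for bt, -0.31 to 0.39 for Strn-Mlck, -0.93 to 0.31 for Actn, -1.07 to 0.39 for Zasp52, -0.60 to 0.48 for SERCA, -0.27 to 0.10 for Msp300, -0.29 to 0.39 for Mef2, -0.43 to 0.20 for how, -1.32 to 0.050 for Scgdelta, -0.24 to 1.06 for Fit1, -0.11 to 0.66 for mew, -1.53 to 0.079 for cher, -0.65 to 0.095 for Gapdh1 and -1.48 to 0.20 for Cftr. With library size alone Msp300 was at 0.051 and how at 0.031, and without a count filter Strn-Mlck was at -0.0014. SERCA was at -0.0076 with limma-voom and, with the set term, at -0.0020 in edgeR and -0.0026 in limma-voom, where Act79B was at -0.042 and Unc-89 at 0.020. The cause of these changes was not tested. The labels number no replicates and give no pairing. The only blocked fits were those with the set term, whose blocks were read from the counts. Depth limits Act88F, TpnC41C, fln and Zasp67, at or below 21 counts in every library, and RyR, at 28 to 47 counts.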
